A study of Mus musculus with 10 samples.

Results

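The genes of mouse chromosome 4 were measured in 10 cell lines of small cell lung cancer, 5 named Mes and 5 named Epi. A gene was taken when the deposited annotation placed its probe on chromosome 4 and the probe was well above background on all 10 arrays, with the brightest probe kept for a gene. This gave 759 of the 12155 genes so measured on all chromosomes, ordered by probe start from 3.5 to 155.6 Mb on the mm9 build. The annotation lists 1217 gene symbols on chromosome 4, of which 252 had no probe above background on any array and 63 were above background in every line of 1 group but not of the other. Chromosome 4 was picked because its Mes minus Epi difference was already known to stand apart in these data, so its shift, the break points and the departure of the line Epi2 are given as descriptions without a test.

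The lines were grown from single cells of a mouse tumour type called non-NE small cell lung cancer, that is, without the neuroendocrine features usual for this cancer. All 10 carry the genotype label RbL/L, Trp53L/L, were untreated and were cultured in RPMI1640 with 10% FBS; the labels do not spell out Mes and Epi, the Cre used or whether lines come from separate tumours. Each line is 1 clone on 1 array, and p-values therefore measure only the spread between these lines. Epi1, Epi3, Epi4 and Epi5 lay on slide 1, Mes3, Mes4 and Epi2 on slide 2, and Mes1, Mes2 and Mes5 on slide 3, so that most of each group sat on a slide of its own. All values are log2 of quantile-normalized array intensity, and differences are log2 differences between lines for the same probe.

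Genes of a chromosome are mostly regulated one at a time, but a gain or loss of a whole chromosome, or of a stretch of it, changes the template number of all genes on it together, and transcript levels tend to follow. Mouse chromosome 4 carries Nfib, a transcription factor gene that is amplified in mouse models of small cell lung cancer. It also carries Mycl, a MYC family gene, and the Cdkn2a and Cdkn2b tumour suppressors. Copy number was not measured here, and its part in the values below was not tested.

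The labels were checked on the same arrays. Vim, a mesenchymal intermediate filament gene, lay between 15.86 and 16.48 in Mes and between 15.65 and 16.67 in Epi lines. Zeb1, a transcription factor gene of the mesenchymal state, lay between 11.56 and 11.89 in Mes and between 11.92 and 12.65 in Epi lines, so every Epi line was above every Mes line. The epithelial cadherin gene Cdh1 was not well above background on any Mes array and was so on 3 of 5 Epi arrays, and Epcam, an epithelial surface protein gene, was above background on none. The neuroendocrine factor gene Neurod1 was above background on no array. Rb1 and Trp53 probes were above background in all 10 lines, and the position of their probes relative to the floxed exons is not given, so they check nothing about the deletion.

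Sequences are shown for 4 hand-picked members that lay far from the common level of the chromosome, in both directions. They are the 250 bases upstream of the RefSeq start of each gene, on GRCm38.p6, read 5′ to 3′ on the gene's strand, with CG dinucleotides in capitals. Dlgap3 (chr4:127172630-127172879, plus strand) and Snhg3 (chr4:132353687-132353936, minus strand) were higher in Mes lines, and Abca1 (chr4:53159896-53160145, minus strand) and Megf6 (chr4:154170463-154170712, plus strand) were lower.
Dlgap3: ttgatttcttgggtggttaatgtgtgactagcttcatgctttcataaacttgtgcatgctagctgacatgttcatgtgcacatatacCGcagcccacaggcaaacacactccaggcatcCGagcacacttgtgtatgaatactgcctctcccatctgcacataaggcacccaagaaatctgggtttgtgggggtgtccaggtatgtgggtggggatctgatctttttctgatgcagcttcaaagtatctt
Snhg3: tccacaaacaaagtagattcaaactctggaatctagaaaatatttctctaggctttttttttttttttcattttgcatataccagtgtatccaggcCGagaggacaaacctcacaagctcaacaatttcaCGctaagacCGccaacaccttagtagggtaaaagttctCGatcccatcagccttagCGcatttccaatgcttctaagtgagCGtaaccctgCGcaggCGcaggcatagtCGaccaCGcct
Abca1: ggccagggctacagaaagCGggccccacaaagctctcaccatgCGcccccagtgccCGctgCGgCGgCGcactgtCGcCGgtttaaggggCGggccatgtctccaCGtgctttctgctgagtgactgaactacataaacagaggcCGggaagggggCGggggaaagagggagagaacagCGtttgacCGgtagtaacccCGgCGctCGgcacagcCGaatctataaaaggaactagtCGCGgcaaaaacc
Megf6: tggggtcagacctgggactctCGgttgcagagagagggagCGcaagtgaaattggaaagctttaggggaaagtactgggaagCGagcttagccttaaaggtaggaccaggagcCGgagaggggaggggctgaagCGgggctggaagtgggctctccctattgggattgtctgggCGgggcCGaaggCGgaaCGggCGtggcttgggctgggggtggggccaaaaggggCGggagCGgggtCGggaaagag
The motif CG occurs 2 times in the Dlgap3 window, 10 times for Snhg3, 20 times for Abca1 and 13 times for Megf6, against a median of 6 over 27025 RefSeq promoter windows of that length. At least as many were held by 80.5% of all promoters for Dlgap3, 38.2% for Snhg3, 17.7% for Abca1 and 31.8% for Megf6. The counts describe these windows only.

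Along chromosome 4, most genes were higher in the Mes lines, by amounts that varied from gene to gene. The median Mes minus Epi difference over the 759 genes was 0.54, a 1.46-fold higher level, with quartiles of 0.13 and 0.89. The difference was above 0 for 623 genes, 82.1%, against 50.1% over the genes of all other chromosomes. Those genes had a median of 0.00, with quartiles of -0.36 and 0.36. Chromosome 9 had a larger shift in the same direction (median 0.71, 85.0% of genes above 0) and chromosome 10 an opposite one (median -0.46, 19.9% above 0). The next chromosome, 16, had a median of 0.20. Scaling by the 75th percentile in place of quantiles gave 0.48 for chromosome 4, and normexp background correction gave 0.40.

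The shift was spread over most of the genes. Of the 759 genes, 486 (64.0%) lay within 0.5 of the running median over 31 neighbouring genes, 13 lay over 2 above it and 19 over 2 below it. The running median stayed above 0 along the whole chromosome, from 0.04 at 43.0 Mb to 1.02 at 149.4 Mb. At least a 2-fold difference was seen for 151 genes higher in Mes lines and 26 lower.

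By limma over all 12155 genes (adjusted p under 0.05), 338 of the 759 genes were higher in Mes lines and 29 were lower, and 392 did not pass. The share called was 28.0% over all genes (15.7% higher, 12.4% lower), beside 48.4% on chromosome 4 (44.5% higher, 3.82% lower). All 5 Mes lines lay above all 5 Epi lines for 215 genes, 28.3% beside 10.3% over all genes, and below for 13 genes, 1.71% beside 7.82%. Because the chromosome was chosen on this contrast, nothing is read from these shares.

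**Figure D1:**
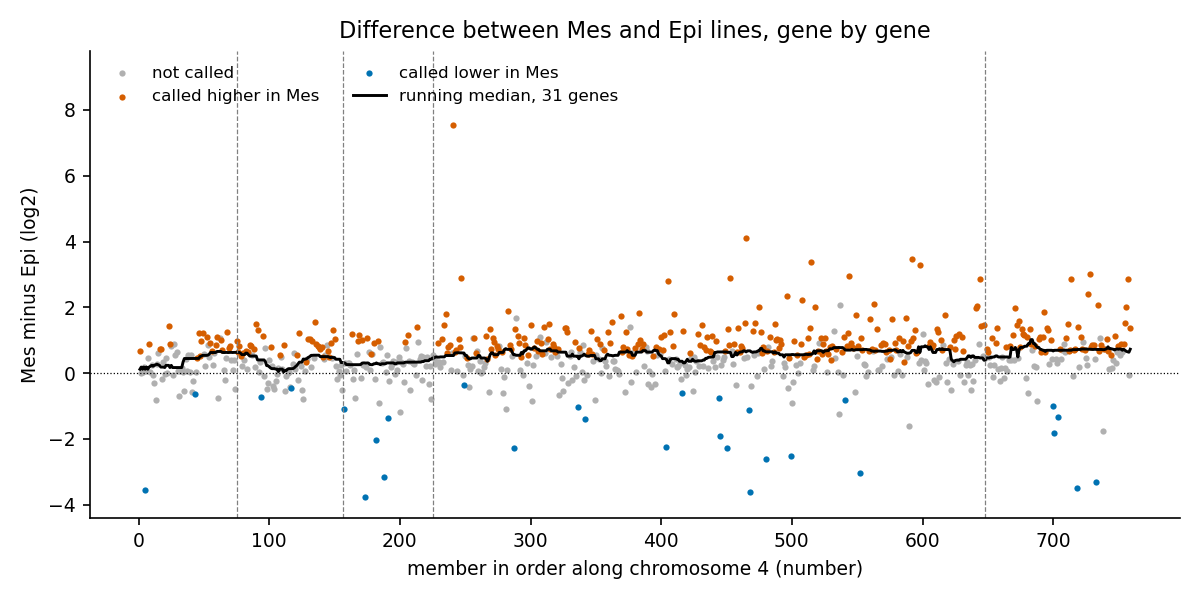
Each point is 1 of the 759 genes in order along chromosome 4 (x axis, member number) with its Mes minus Epi difference (y axis, log2), coloured by its limma call; the line is the running median over 31 genes and dashed lines bound the 5 intervals named in the text. The running median stays between 0.04 and 1.02, while single genes reach from -3.78 (Abca1) to 7.53 (Plin2).

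Slides overlap with the groups and limit what the comparison can separate. On slide 2, the only slide with both groups, the median of Mes3 and Mes4 minus Epi2 was 0.21; slides 1 and 3 hold 1 group each and give no value. With slide as a fixed block, which leaves this slide 2 contrast alone, 1 chromosome 4 gene was called (142 at an unadjusted p under 0.05). With slide as a random block 401 were called, 369 higher and 32 lower. Outside slide 2, slide and group cannot be told apart.

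Line by line, the 5 Mes lines had similar medians, and so did the Epi lines other than Epi2. The median of each line minus the mean of the 10 lines over the 759 genes was 0.22 in Mes1, 0.28 in Mes2, 0.24 in Mes3, 0.35 in Mes4 and 0.25 in Mes5. It was -0.30 in Epi1, 0.09 in Epi2, -0.38 in Epi3, -0.41 in Epi4 and -0.37 in Epi5. The Epi2 median thus lay between the other Epi lines and all Mes lines, and the 2 groups did not overlap. The SD over lines was 0.05 in Mes and 0.21 in Epi, and 0.05 over the Epi lines other than Epi2.

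Epi2 was higher than the other 4 Epi lines by a median of 0.41 over the chromosome 4 genes. This was the highest value for Epi2 among 20 chromosomes, followed by chromosome 13 at 0.39, with chromosome 5 the lowest at -0.32. Over the chromosomes other than 4, the median absolute value was 0.036, and on chromosome 9, where Mes and Epi also differed, it was -0.03. Epi2 lay above the range of the other 4 Epi lines for 467 genes, 61.5%, against 28.9% of all genes, and below it for 46, 6.06%, against 24.8%.

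Epi2 was nearer to the Mes lines than to the other Epi lines. It exceeded the mean of Epi3, Epi4 and Epi5 by a median of 0.46 (1.38-fold) and lay below the mean of the Mes lines by a median of 0.19 (1.14-fold), while Mes lines exceeded Epi3, Epi4 and Epi5 by 0.65 (1.57-fold). Single Mes lines exceeded Epi2 by 0.13 to 0.26, and each of Epi3, Epi4 and Epi5 by 0.59 to 0.79. Without Epi2 the Mes minus Epi median was 0.63. For 345 genes all Mes lines lay above the other 4 Epi lines. Among these Epi2 fell in the gap for 146, within or above the Mes range for 130 and within or below the other Epi lines for 69. The same counts were not taken over all genes, so nothing is read from them. Epi2 was the one Epi line on slide 2, so its line and its slide cannot be told apart, and the cause of its level was not tested.

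**Figure D2:**
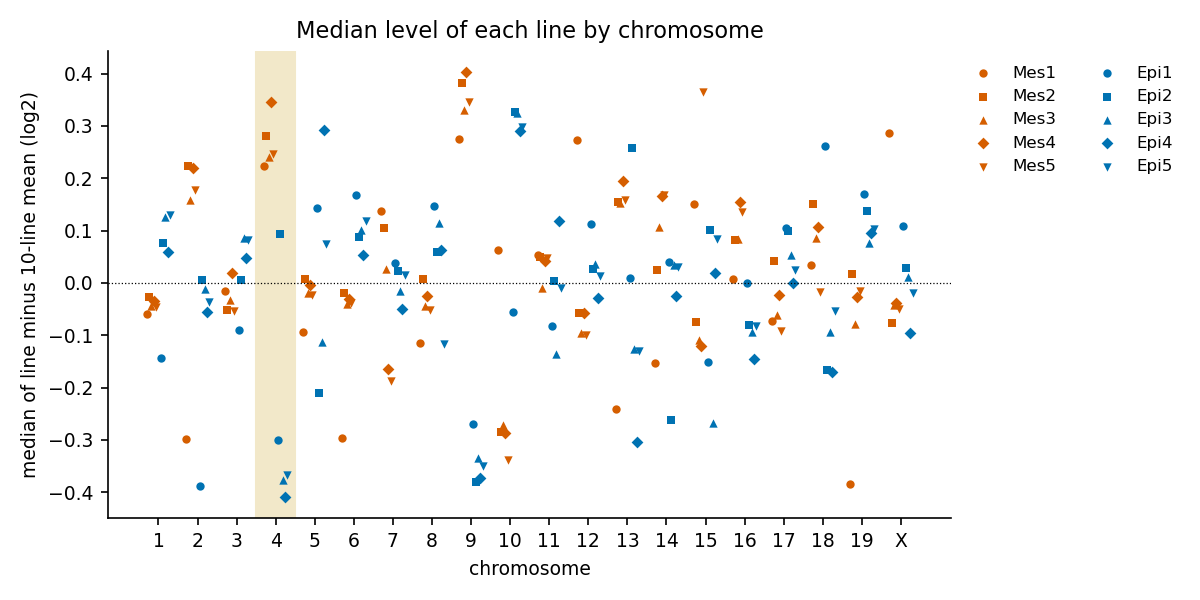
The y axis gives the median over a chromosome's genes of each line minus the mean of the 10 lines (log2), by chromosome (x axis); orange markers are Mes lines, blue markers Epi lines, and chromosome 4 is shaded. On chromosome 4 Epi2 sits at 0.09, apart from the other Epi lines at -0.41 to -0.30, while on chromosome 9 the 5 Epi lines lie together.

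The excess of Epi2 over Epi3, Epi4 and Epi5 ran the length of the chromosome. A piecewise-constant fit added a break only when it lowered the summed absolute deviation by at least 1%. Relative to the mean of the lines, it placed no break in Epi2, Mes2, Mes3 or Mes5. The first break in Epi2 would have lowered that deviation by 0.93%, just under the bound. Epi3 had a break at 126.5 Mb, with medians of -0.32 before and -0.46 after. Against the other lines of their group, Mes3 had a break at 147.7 Mb (-0.27 after) and Mes5 at 135.8 Mb (-0.19 after), and Epi2 had none. In 4 of the 5 intervals described next Epi2 was above the other 4 Epi lines by 0.41 to 0.54; in the third, where Epi1 was high, the value was 0.13, and against Epi3, Epi4 and Epi5 alone it was 0.40.

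Breaks in Mes1, Epi1 and Mes4 divided the chromosome into 5 intervals of 75, 81, 69, 422 and 112 genes. Each bound was placed where its own line stepped. The level and shares of that line inside its interval, given below, follow from this choice and are descriptions only. Their Mes minus Epi medians were 0.44, 0.43, 0.31, 0.61 and 0.71, and against Epi3, Epi4 and Epi5 alone they were 0.42, 0.55, 0.63, 0.71 and 0.80. The genes called higher and lower numbered 22 and 2, 33 and 2, 11 and 5, 212 and 15, and 60 and 5 in this order. The third interval had the lowest share called, 23.2%, and the fifth the highest, 58.0%, beside 28.0% over all genes and 48.4% on the chromosome. Nothing is read from these shares.

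The third interval, from Tgfbr1 at 47.4 Mb to Kdm4c at 74.1 Mb, was high in Epi1. Epi1 exceeded the other 4 Epi lines there by a median of 1.10 and the mean of the Mes lines by 0.53, and its median over the rest of the chromosome was -0.34 before and -0.35 after, relative to the mean of the lines. It lay above the range of the other Epi lines for 57 of the 69 genes, 82.6%, against 19.1% of all chromosome 4 genes and 22.8% of all genes. The genes at the bounds differed in how far they followed the step. Galnt12, an enzyme gene of O-linked glycosylation just before the interval, was 9.53 in Epi1 and 10.56, 10.80, 10.59 and 10.74 in Epi2 to Epi5, the lowest Epi line. Tgfbr1, the first gene of the interval, did not show it, at 10.38 in Epi1, within the 10.08 to 10.92 of the other Epi lines. The fit of Epi1 against the other Epi lines placed the break after Tgfbr1, before Alg2. That fit also placed a break at 20.8 Mb, with an Epi1 median of -0.46 before it and -0.07 from there to Tgfbr1. Kdm4c, a histone demethylase gene and the last in the interval, was 10.72 in Epi1 and 9.61, 9.36, 9.15 and 9.26 in Epi2 to Epi5, above every other line of both groups. Dmac1, a gene for a mitochondrial complex assembly protein just beyond it, was 12.37 in Epi1, within the range of the other Epi lines (12.19 to 12.76).

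The first interval, from Tmem68 to C9orf72 (3.5 to 35.1 Mb), was low in Mes1. Mes1 lay below the other 4 Mes lines by a median of 0.49 there and differed from them by -0.01 over the rest. It was below their range for 49 of 75 genes, 65.3%, against 31.2% of the genes on other chromosomes. C9orf72, a gene for a subunit of a guanine exchange factor complex in membrane traffic, was 10.04 in Mes1 and 11.01, 10.72, 10.79 and 9.91 in Mes2 to Mes5. Mes1 stood apart on other chromosomes too, by -0.51 on chromosome 2 and 0.37 on chromosome 10.

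The fifth interval, from Zfp933 at 147.2 Mb to the last gene, Klhl17, at 155.6 Mb, was high in Mes4. Mes4 exceeded the other 4 Mes lines by a median of 0.59, against 0.04 over the rest of the chromosome, and was above their range for 77 of 112 genes, 68.8%, against 17.1% of all genes. Nmnat1, an NAD synthesis enzyme gene in this interval, was 12.61 in Mes4 and 11.40 to 11.87 in the other Mes lines. Miip, an inhibitor of cell migration and one of the first genes in the interval, was 12.59 in Mes4 and 11.28 to 11.93 in the others. Relative to the mean of all 10 lines the Mes4 step was placed earlier, between Nbl1 at 138.6 Mb and Micos10 at 138.7 Mb, with medians of 0.29 before and 0.73 after.

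The Mes minus Epi profile itself had 1 break, between Ttc39b at 82.9 Mb and Snapc3 at 83.1 Mb, with a median of 0.35 over the 233 genes before it and 0.64 over the 526 after it. It lowered the deviation by 2.29%, a small step beside the 12.65% of the 2 breaks in Epi1, and without Epi1 the break moved to 21.7 Mb. Epi4 and Epi5 each had a break at the same place, 21.7 Mb, and were nearer to the mean of the lines before it (-0.08 and -0.12) than after it (-0.43 and -0.38). Snapc3, a gene for a subunit of a complex needed for transcription of small nuclear RNA genes, was higher in Mes lines. The difference was 1.45 ± 0.18 (SE, n = 5 and 5, limma adjusted p = 0.000715). Its neighbour Psip1, a chromatin reader gene, was higher by 1.79 ± 0.17 (adjusted p = 0.000335). Psip1 ran from 12.72 to 13.02 in Mes and from 10.74 to 11.45 in Epi lines, without overlap. The Snapc3 value is that of 1 of 3 probes, which ranged from 0.07 to 1.45, and their mean gave 0.57.

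**Figure D3:**
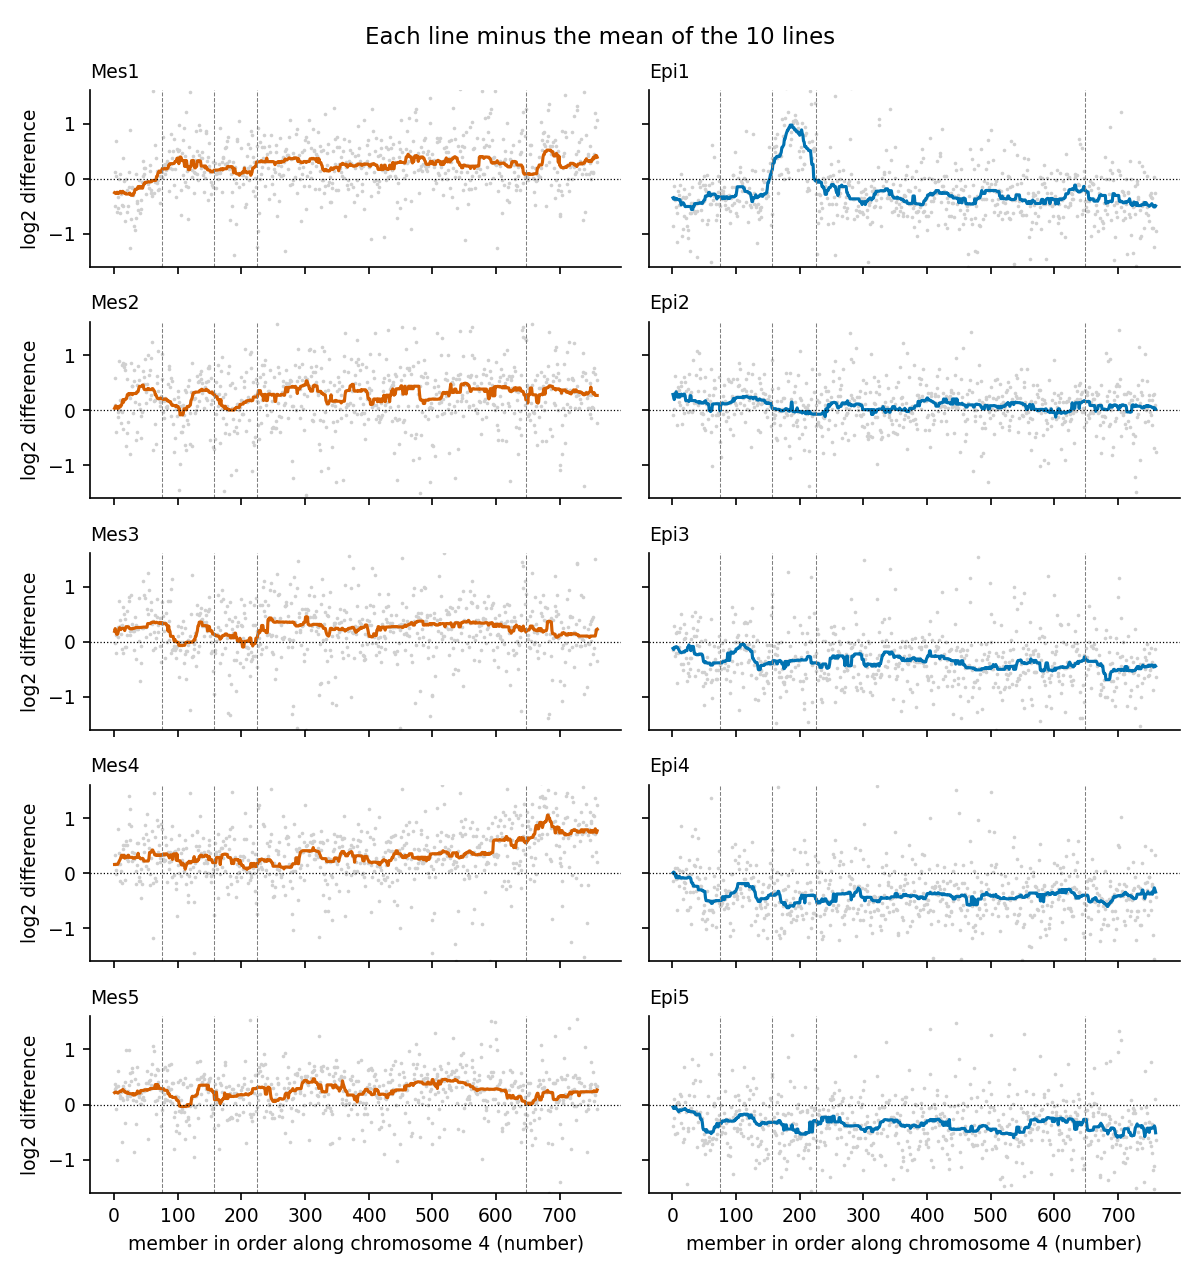
Each panel shows 1 line minus the mean of the 10 lines (log2, y axis) for the 759 genes in order (x axis); grey points are genes, the coloured line is the running median over 31 genes and dashed lines bound the 5 intervals. Epi1 rises in the third interval (median 0.62), Mes1 is low in the first (-0.17) and Mes4 is high in the fifth (0.79). Interval medians of Epi2 run from -0.02 in the third to 0.18 in the second. Of 7590 points, 233 lie beyond 1.6 and are not drawn.

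Some genes followed the line medians closely. The Pearson correlation of a gene's 10 values with the 10 line medians had a median of 0.73 over the 759 genes and was over 0.7 for 401 of them, 52.8%; these points share arrays and normalization, and the values are descriptions. Pars2, a mitochondrial prolyl-tRNA synthetase gene, was among the 3 most alike with 8.41, 8.59, 8.43, 8.65 and 8.63 in Mes1 to Mes5 and 7.29, 8.21, 7.09, 7.25 and 7.22 in Epi1 to Epi5. Epi2 was near the Mes lines and the other Epi lines lay below every Mes line. Hp1bp3, a heterochromatin binding protein gene, and Alg6, a glucosyltransferase gene of N-glycosylation, were the others, with Epi2 at 11.23 against 10.39 to 10.73 and at 8.67 against 7.90 to 8.16 in the other Epi lines.

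Genes of known roles in tumours had a median difference close to that of the chromosome. Of 18 listed tumour genes measured, 15 were above 0, with a median of 0.53 beside 0.54 for all 759. The test called 6 higher in Mes lines and none lower, and 12 did not pass, beside 44.5% called higher on the chromosome and 15.7% over all genes. Faf1, a gene for a FAS-associated factor, was higher by 1.36 ± 0.14 (SE, limma adjusted p = 0.00039), Arid1a, a SWI/SNF chromatin remodeller gene, by 1.23 ± 0.13 (adjusted p = 0.000387) and Kdm1a, a histone demethylase gene, by 1.05 ± 0.13 (adjusted p = 0.000712). In these 3 genes the Mes and Epi lines did not overlap. Jak1, a cytokine receptor kinase gene, was higher by 0.63 ± 0.19 (adjusted p = 0.0338), with overlapping groups, and its call was lost without any 1 of Mes1, Mes2, Mes3, Epi3, Epi4 or Epi5 (adjusted p = 0.051 to 0.0807). It was also lost with 75th percentile scaling (adjusted p = 0.0648), with no filter on dim probes (0.0534) and with the mean over its probes (0.054).

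Nfib was bright in every line. It was 13.13, 13.19, 13.10, 13.38 and 13.74 in Mes1 to Mes5 and 12.85, 13.28, 12.75, 12.97 and 12.94 in Epi1 to Epi5. Epi2 was within the Mes range and the other 4 Epi lines were below all Mes lines. The difference of 0.35 ± 0.16 (SE) did not pass the test (limma adjusted p = 0.122).

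The tumour suppressor pair Cdkn2a and Cdkn2b, cell cycle inhibitor genes, differed little between the groups, at 0.13 ± 0.24 (SE, limma adjusted p = 0.701) and 0.21 ± 0.36 (adjusted p = 0.696). Cdkn2a was lowest in Epi2 at 10.91, against 11.36 to 11.99 in the other Epi lines and 11.37 to 12.18 in Mes lines. Cdkn2b was lowest in Epi1 at 12.23, against 13.11 to 14.24 in the other 9 lines. Jun, an AP-1 factor gene, differed by 0.36 ± 0.33 (adjusted p = 0.431). Mycl, listed as Mycl1, was above background on 4 of 5 arrays of each group and so is no member. Tox, an HMG-box factor gene, was above background on all 5 Epi arrays with 2 of its probes and on no Mes array, and is no member either.

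Of 26 cell cycle and DNA repair genes measured, 16 were higher in Mes lines, none lower and 10 did not pass, beside 44.5% called higher on the chromosome and 15.7% over all genes. Their median was 0.85 and 25 lay above 0, beside a median of 0.54 and 82.1% above 0 on the chromosome, and no test set them apart from it. Mutyh, a DNA glycosylase gene of base excision repair, was 9.12 to 9.58 in Mes and 7.48 to 8.24 in Epi lines, a difference of 1.57 ± 0.17 (SE, limma adjusted p = 0.000416), or 1.04 with normexp background correction. Plk3, a stress-responsive polo-like kinase gene, was higher by 1.74 ± 0.31 (adjusted p = 0.00317). E2f2, a cell cycle transcription factor gene, was 9.63 to 11.21 in Mes and 7.41 to 9.69 in Epi lines, with Epi2 the highest Epi line and overlapping Mes, and the difference was 1.65 ± 0.47 (adjusted p = 0.0249). Its call was lost without Epi3, Epi4 or Epi5 (adjusted p = 0.0564 to 0.0624). Ccne2, the cyclin E2 gene, did not pass (0.33 ± 0.33, adjusted p = 0.478).

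The translation, metabolic and stress lists had medians near the 0.54 of the chromosome, and their counts are read beside its 44.5% called higher (15.7% over all genes). Of 17 translation and RNA genes 10 were higher and none lower (median 0.61), with Eif4g3, a translation initiation scaffold gene, at 3.46 ± 0.68, Srsf4, a splicing factor gene, at 0.88 ± 0.21 and Sfpq, another splicing factor gene, at 0.83 ± 0.18 (SE, limma adjusted p = 0.00507, 0.0123 and 0.00746). With the mean over its probes Sfpq was 0.36 and lost its call (adjusted p = 0.0753). The ribosomal protein genes Rps6 and Rpl11 were higher by 0.71 and 0.42, both past the threshold. Of 23 metabolic genes 13 were higher and none lower (median 0.61). Among them were Ctps, the CTP synthase gene (1.25), and Nmnat1 (1.18). Of 12 stress response genes 7 were higher and none lower (median 0.58), led by Sesn2, a p53-inducible nutrient sensor gene, at 2.02 ± 0.44 (adjusted p = 0.00785).

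The signalling receptor and matrix lists had medians below that of the chromosome, a difference that was not tested. Of 11 receptor genes 2 were higher, 2 lower and 7 did not pass (median 0.05, 6 above 0). Of 15 matrix and adhesion genes 2 were higher, 3 lower and 10 did not pass (median 0.21, 10 above 0). The shares called higher and lower were 44.5% and 3.82% on the chromosome and 15.7% and 12.4% over all genes. Tgfbr1, the type I receptor gene for TGF-beta, was 10.17, 9.31, 9.06, 9.25 and 9.58 in Mes1 to Mes5 and 10.38, 10.92, 10.87, 10.08 and 10.51 in Epi1 to Epi5. Mes2 to Mes5 were below every Epi line and Mes1 was above Epi4. The difference was -1.08 ± 0.23 (SE, limma adjusted p = 0.00785). Tnfrsf25, a death receptor gene, differed by -1.82 ± 0.37 (adjusted p = 0.00559), or -1.001 with normexp, and Ptprf, a receptor tyrosine phosphatase gene, was higher by 1.83 ± 0.49 (adjusted p = 0.0191).

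Agrn, the basement membrane proteoglycan agrin gene, was 13.91 to 15.47 in Mes and 11.99 to 13.76 in Epi lines, higher by 2.02 ± 0.38 (SE, limma adjusted p = 0.00394). Svep1, a large matrix adhesion protein gene, was lower in Mes lines, with a difference of -3.16 ± 0.90 (adjusted p = 0.0253), but Mes4 at 11.72 lay inside the Epi range of 9.84 to 12.66 and the other Mes lines were at 6.60 to 8.40. Its call was lost without Mes2, Mes3, Mes5, Epi1 or Epi3 (adjusted p = 0.0527 to 0.06) and with no filter on dim probes (0.0512). Tnc, the tenascin C gene, did not pass (-0.21 ± 0.44, adjusted p = 0.743). In the interferon cluster only 5 genes were measured. Klhl9, a ubiquitin ligase adaptor gene beside the interferon genes, was higher (0.46 ± 0.15, adjusted p = 0.0444), and Ifna13, an interferon alpha gene that was dim in all lines (3.91 to 4.49), was lower (-0.36 ± 0.11, adjusted p = 0.0296). The calls of both were lost without several single lines (adjusted p up to 0.103 for Klhl9 and 0.0729 for Ifna13) and with normexp background correction, where Klhl9 was 0.21 (0.0892) and Ifna13 was -0.045 (0.48).

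The genes that departed most from the common level moved in both directions. Among genes whose groups did not overlap, Dlgap3, a postsynaptic scaffold gene, had the largest positive difference. It was 7.17, 8.60, 9.68, 8.42 and 9.67 in Mes1 to Mes5 and 5.06, 4.20, 4.88, 4.10 and 4.80 in Epi1 to Epi5. Every Mes line was above every Epi line by over 2, and Epi2 was among the low lines. The difference was 4.10 ± 0.45 (SE, 17.1-fold, limma adjusted p = 0.000416). With normexp background correction, which lifts dim signals by a fixed offset, it was 1.56, still called.

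Snhg3, a host gene of small nucleolar RNAs, was 12.42 to 13.07 in the Mes lines and 9.42, 10.88, 9.07, 8.60 and 9.13 in Epi1 to Epi5. Epi2 was the highest Epi line and still below all Mes lines. The difference was 3.39 ± 0.36 (SE, 10.5-fold, adjusted p = 0.000416 by limma). Others of this kind were Eif4g3 (3.46), Camk2n1, a CaMKII inhibitor gene (3.28 ± 0.42), Cfap74, a cilia-associated protein gene (3.02 ± 0.35), Rps6ka1, an S6 kinase gene (2.94 ± 0.40), Ago4, an Argonaute gene (2.89 ± 0.50), and Smim1 (2.87 ± 0.39). In all of these but Snhg3, Epi2 lay within or below the range of the other Epi lines, unlike the chromosome's median. With normexp Camk2n1 was 1.63, Cfap74 0.99, Rps6ka1 1.90, Ago4 0.89 and Smim1 1.56, all still called. Probes of Rps6ka1 ranged from 0.86 to 2.94, with a mean of 1.90, and those of Ago4 from 0.19 to 2.94.

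In the opposite direction, Abca1, the cholesterol and phospholipid export transporter gene, had the largest negative difference. It was 3.96, 4.20, 3.72, 3.84 and 3.18 in Mes1 to Mes5 and 9.32, 7.46, 7.40, 5.37 and 8.25 in Epi1 to Epi5. All Mes lines were dim and every Epi line was higher, Epi4 the least. The difference was -3.78 ± 0.59 (SE, 13.7-fold lower, limma adjusted p = 0.00165), and -1.07 with normexp, still called.

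Penk, the proenkephalin gene, was 2.53 to 5.26 in Mes lines and 5.67 in Epi3 but 7.95 to 8.65 in the other Epi lines, a difference of -3.55 ± 0.61 (SE, limma adjusted p = 0.00273). Megf6, a gene for an EGF-repeat protein, was 5.20 to 7.10 in Mes lines and 8.22 in both Epi1 and Epi2 and 10.07, 10.82 and 10.92 in Epi3 to Epi5, a difference of -3.49 ± 0.60 (adjusted p = 0.00271). Epi1 and Epi2 were thus intermediate. Mmp23, a membrane-bound matrix metalloproteinase gene, differed by -3.31 ± 1.05 (adjusted p = 0.0386), with Mes5 at 3.09 and the other Mes lines at 6.69 to 9.09; its call was lost without Mes1, Epi2, Epi3, Epi4 or Epi5 (adjusted p = 0.0524 to 0.0849) and with no filter on dim probes (0.074). Sync, the syncoilin intermediate filament gene (-2.60 ± 0.35), Serinc2 (-2.52 ± 0.69), Ctnnal1, a catenin-like protein gene (-2.04 ± 0.50), and Eva1b (-1.91 ± 0.35) completed the 8. With normexp Penk was -1.12, Megf6 -2.22, Mmp23 -2.05, Sync -1.11 and Ctnnal1 -1.22, all still called, and Serinc2 was -0.89 and lost its call (adjusted p = 0.0641).

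**Figure D4:**
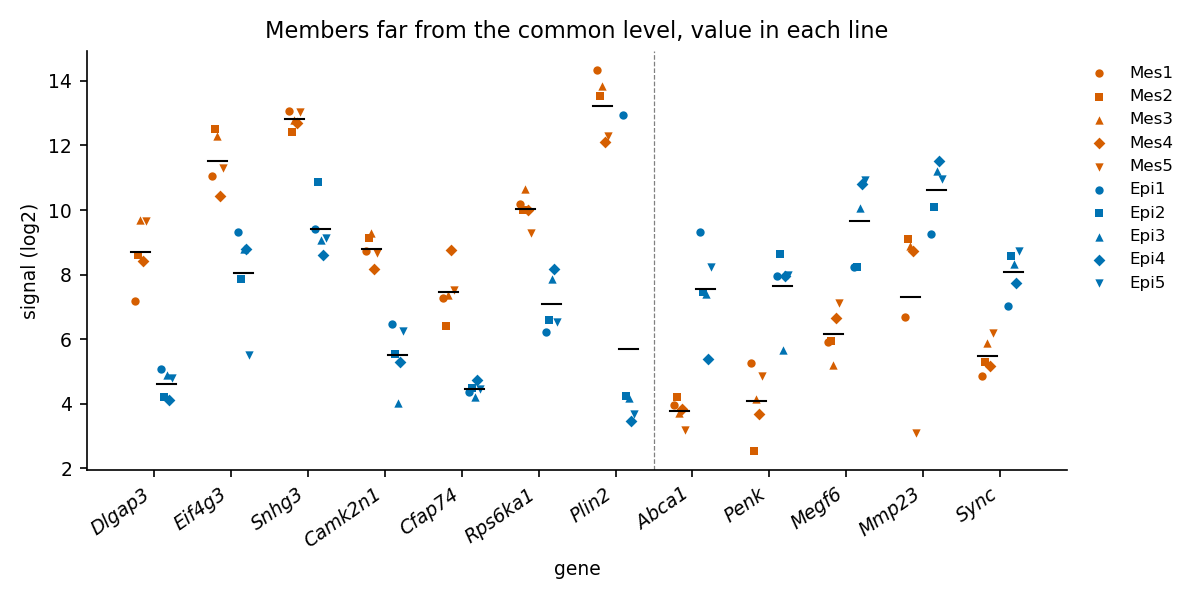
The y axis gives log2 signal for 12 genes far from the common level (x axis); orange markers are the 5 Mes lines, blue markers the 5 Epi lines, black bars the group means, and the dashed line separates genes higher from genes lower in Mes. Dlgap3 runs from 7.17 to 9.68 in Mes and 4.10 to 5.06 in Epi, Abca1 from 3.18 to 4.20 and 5.37 to 9.32, and in Plin2 the line Epi1 lies with the Mes lines.

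The largest difference of all 759 genes belonged to Plin2, the lipid droplet coat protein gene, which was chosen after its values were seen. It was 14.35, 13.52, 13.84, 12.11 and 12.28 in Mes1 to Mes5, 12.93 in Epi1 and 4.23, 4.16, 3.47 and 3.67 in Epi2 to Epi5. Epi1 was inside the Mes range and the other 4 Epi lines were lower than every Mes line by over 7. The mean difference of 7.53 ± 1.62 (SE, limma adjusted p = 0.00756) therefore averages lines of 2 kinds, and it was 4.60 with normexp. Isg15, an interferon-induced ubiquitin-like gene also chosen after its values were seen, was 11.75, 11.53, 11.63, 9.86 and 9.81 in Mes1 to Mes5 and 8.24, 9.78, 7.29, 7.00 and 7.95 in Epi1 to Epi5. Epi2 fell just below Mes5, and the difference was 2.86 ± 0.58 (adjusted p = 0.0055).

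Single genes set Epi2 apart by far more than the chromosome's median. Ccdc17, a coiled-coil protein gene, was 6.97 in Epi2 and 3.47 to 4.36 in the other Epi lines. Zc3h12a, an RNase gene of the inflammatory response, was 7.36 in Epi2 and 4.22 to 5.09 in the other Epi lines, and among Mes lines Mes1 alone was high at 8.45 against 4.76 to 5.34. Wdr78, a dynein-associated gene, was 6.71 against 3.70 to 5.06. These genes were chosen for lying above every other Epi line in Epi2.

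Against the direction of its chromosome, Epi2 was low for Pappa, a protease gene that cleaves IGF binding proteins, at 4.83 against 6.21 to 10.22 in the other Epi lines. It was also the lowest of all 10 lines for Fabp3, a fatty acid binding protein gene (3.17), Epb41, a membrane skeleton gene (4.56), Ptprf (10.44 against 12.17 to 13.50 in the other Epi lines) and C1qtnf12, a secreted adipokine gene (10.60). Epb41 and Ptprf were higher in all Mes lines than in all Epi lines, by 2.23 ± 0.58 and 1.83 ± 0.49 (SE, limma adjusted p = 0.0177 and 0.0191), and Epb41 by 1.18 with normexp.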

How the data were processed

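Total RNA of 10 lines was labelled with Cy3 and hybridised to 1-colour Agilent arrays. The deposited scanner files hold intensity values from Agilent Feature Extraction 10.7, per the submitters' processing notes (10.7.3.1 per the file headers). The deposited table of log2 values was quantile-normalized in GeneSpring 11.0, per the series text. Its columns have a median of 5.07 and correlate with their own scanner values at 0.9996 to 0.9999, so it is an uncentred log2 scale, used for annotation, mm9 positions and an alternative.

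Processed intensities of 41174 probes were quantile-normalized, floored at 1 and log2-transformed, after leaving out 46 to 87 outlier spots per array and 1639 control spots. Between 60.4% and 64.4% of probes were well above background per array, and none was saturated. The number of arrays limits the precision. Genes were tested by moderated linear models (limma 3.58.1 under R 4.3.3; lmFit, then eBayes), with Benjamini-Hochberg adjusted p over 12155 genes at a threshold of 0.05. Break points came from a piecewise-constant least absolute deviation fit (Python 3.11.15) with at least 15 genes per segment. Symbols were updated through RefSeq (GRCm38.p6) by Entrez ID for 735 of 759 genes, all on chromosome 4 there, which changed 103 symbols. Promoters came from the same source.

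The genes named in the text were a set of single genes, the 8 largest called differences per direction without overlap, up to 3 called genes of each role list, genes beside breaks, 5 genes per direction where Epi2 stood apart, and the 3 most like the line medians; a few genes that these rules name are not reported here. The members, lists and rules were chosen with earlier results of these data known. Of 333 members with more than 1 probe, 294 had probes of 1 sign and 24 had probes over 1 apart. Line numbers shared by Mes and Epi did not pair the lines: deviations of same-numbered lines correlated at 0.002 to 0.047. The alternatives covered scaling, background correction, the filter, the floor, probes, slides, left-out lines and the break settings.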

Additional observations from a re-analysis of the deposited data

Results flagged for a closer look

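Of 158 sets of 5 lines examined, 18 had a line whose gap to the nearest other line took up an unusually large share of the group's range. Some sets were chosen because a line stood apart in them, such as intervals cut at breaks of single lines and genes picked for Epi2. The count is therefore a description and is not compared with a chance rate. The chromosome 4 medians relative to the mean of the 10 lines set Epi2 apart, at 0.094 over all genes against -0.41 to -0.30 in the other Epi lines. In intervals 2, 4 and 5 Epi2 was at 0.18, 0.073 and 0.079, against -0.36 to -0.28, -0.43 to -0.32 and -0.45 to -0.42. In the first interval Mes1 was at -0.17 against 0.26 to 0.28 in the other Mes lines, and in the fifth Mes4 was at 0.79 against 0.15 to 0.32.

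Among genes, Plin2 stood apart in Epi1 at 12.93 against 3.47 to 4.23 in the other Epi lines, as did Galnt12 at 9.53 against 10.56 to 10.80 and the identifier-only gene 2010003D24Rik at 7.29 against 8.59 to 8.96. Epi2 was apart for Ccdc17 at 6.97, Zc3h12a at 7.36 and Pars2 at 8.21, and Epi3 for Penk at 5.67 against 7.95 to 8.65. Mes1 was apart for Serinc2 at 3.15 against 5.33 to 5.67, Kdm4c at 10.50 against 10.07 to 10.16, Dmac1 at 13.57 against 12.58 to 12.81, Zc3h12a at 8.45 against 4.76 to 5.34, and Hp1bp3 at 11.49 against 11.78 to 11.80. The causes were not tested.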

How the results depend on the processing

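The count of 367 called genes stayed between 283 and 453 under the other alternatives, and between 283 and 408 with 1 line left out, but was 1 with slide as a fixed block and 0 on slide 2 alone (limma, 122 at an unadjusted p under 0.05), where 3 arrays remain. The median shift of 0.54 was 0.40 with normexp background correction and 0.33 with no filter on dim probes. It was 0.21 on slide 2 alone and 0.51 to 0.63 with 1 line left out. The Epi2 excess of 0.41 was 0.29 after normexp background correction, 0.27 with no filter and 0.40 to 0.46 with 1 Epi line left out (0.46 without Epi1). The Mes minus Epi break at 83.0 Mb moved to 21.7 Mb without Epi1, and also, as an alternative added after seeing the data, without both Epi1 and Mes1; with 1 line left out it ranged from 21.7 to 98.5 Mb and otherwise from 80.8 to 115.4 Mb. The interval values were recomputed after seeing the data. For Epi1 in the third interval, 1.10 became 0.77 with normexp and 0.70 with no filter. For Mes4 in the fifth, 0.59 became 0.44 with normexp. For Mes1 in the first, -0.49 became -0.35 with normexp, -0.48 in the deposited table, -0.51 with the filter on 1 group, -0.41 with no filter, -0.54 over all probes of a gene and -0.50 to -0.46 with 1 Mes line left out. The cause was not tested.

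Of the named genes, these changed direction in some setting, and all but E2f2 had not passed the test. On slide 2 alone and with slide as a fixed block Nfib was -0.04, Jun -0.31, E2f2 -0.046, Ccne2 -0.34, Ttc39b -0.33, Dmac1 -0.10, Ccdc17 -2.44, Zc3h12a -2.18 and Fabp3 0.61. With 1 line left out, Cdkn2a ranged from -0.049 (without Epi2) to 0.23, Cdkn2b from -0.11 (without Epi1) to 0.38, 2010003D24Rik from -0.021 (without Epi1) to 0.56, Zc3h12a from -0.31 (without Mes1) to 0.88, Pappa from -0.19 (without Epi2) to 1.16, Ccdc17 from -0.28 (without Epi4) to 0.60 and Tnc from -0.49 to 0.10 (without Epi1). With array weights Cdkn2a was -0.086 and Cdkn2b -0.091, and over all probes Ttc39b was -0.21. Ccdc17, at 0.00, was -0.029 with 75th percentile scaling, -0.043 with normexp and -0.11 with a floor of 16.

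With the replicate number as a block, 319 genes were called (295 higher, 24 lower) and the median was 0.54; the numbers did not pair the lines, and 6 of 73 named genes lost their call there, with adjusted p of 0.0588 for Serinc2, 0.0521 for Ctnnal1, 0.0617 for Svep1, 0.066 for Klhl9, 0.0857 for Ifna13 and 0.0708 for Miip. Only slide 2 holds both groups, and each line is 1 array. Genes not well above background on every array were not analysed in the counts of 759.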
